A study of Homo sapiens with 5 samples.

Results

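The 10 genes described here encode transcription factors of the neural plate border and the neural crest: PAX3, PAX7, TFAP2A, ZIC1, MSX1, MSX2, SOX9, SOX10, FOXD3 and SNAI2. The members are all FOXB1 ChIP-seq peaks whose centre lay within 500 kb of a hg19 point given for each gene, which makes 10 windows of 1 Mb on 9 chromosomes. The windows held 11 of the 3348 peaks of wild-type (WT) replicate 1, 20 of the 4388 peaks of WT replicate 2, and 0 of the 11 and 0 of the 12 peaks of knockout (KO) replicates 1 and 2. Of these peaks, 8 sites were found in both WT lists (overlap of at least 1 bp), out of 2158 such shared sites in all. The choice used gene positions, not peak values, although it was made with earlier results of these data known.

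The cells were pre-neural crest cells at day 3, derived from the established human embryonic stem cell line WA01 under CHIR 99021, an inhibitor of GSK3 that activates Wnt signalling. ROCK inhibitor Y-27632 was present at the start of the culture. The 2 WT libraries and the 2 KO libraries (FOXB1 dgRNA-KO, a line in which CRISPR/Cas9 removed the part of FOXB1 that encodes the DNA-binding domain) were made with an antibody against FOXB1, and 1 WT input library was made with no antibody. All groups share the parental line, the day and the medium; the sources used here do not say whether the KO line is 1 clone. Libraries held 15106068 to 22637495 tags, a tag being an aligned read. The height of a peak is given in normalized tags, the tags in its window per 10000000 tags of the library. The files hold no expression values, so neither the cell type nor the loss of FOXB1 was checked against marker genes.

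Neural crest cells arise at the border of the neural plate, between future neural tissue and future epidermis. Wnt, BMP and FGF signals there turn on border factors such as PAX3, PAX7, TFAP2A, ZIC1, MSX1 and MSX2. These act ahead of the neural crest factors FOXD3, SNAI2, SOX9 and SOX10, which govern delamination, migration and the fates of the cells. FOXB1 is a forkhead protein, a class of factors that bind DNA through a winged-helix domain.

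The density of shared FOXB1 sites in the windows of 1 Mb did not differ detectably from that of the rest of their chromosomes, and the sites were unequally spread over the 10 genes. PAX7 had 4 of the 8 shared sites. TFAP2A, MSX1, MSX2 and FOXD3 had 1 each. PAX3, ZIC1, SOX10 and SNAI2 had peaks in 1 WT list or in both, but at no common place, and SOX9 had no peak in any list. By role, the 6 border genes held 7 shared sites and the 4 neural crest genes held 1. In WT replicate 1 the border and neural crest genes held 9 and 2 peaks, and in WT replicate 2 they held 17 and 3. Without PAX7 the other 5 border genes had 3 shared sites. For scale, the rest of the same chromosomes held 0.705 shared sites per Mb. It held 1.10 and 1.37 peaks per Mb in WT replicates 1 and 2, and each gene has a window of 1 Mb. The roles also overlap, since TFAP2A acts in the neural crest too and PAX7 also marks early neural crest. This split by role was not tested.

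**Figure D1:**
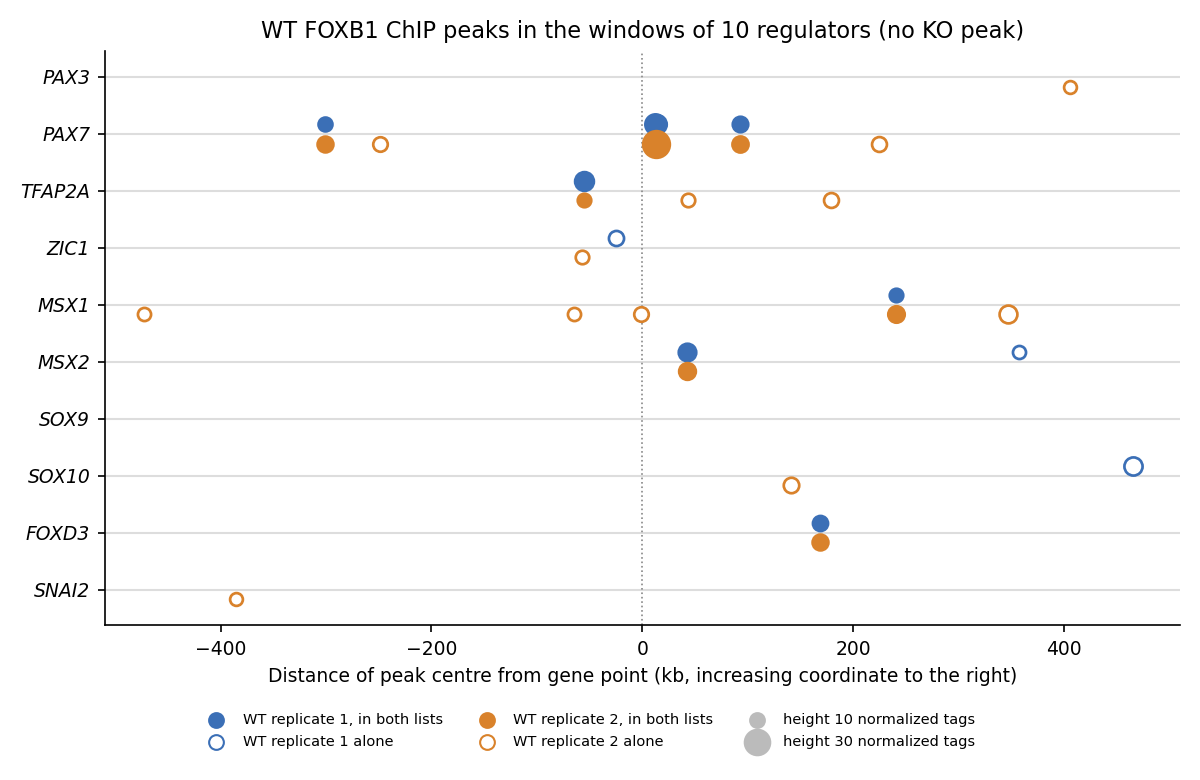
Peaks of the WT lists in the windows of the 10 genes, by distance of the peak centre from the gene point in kb (horizontal axis), with the circle area in proportion to peak height. Filled circles are shared by both WT lists, open circles are found in 1 list; the pair of PAX7 sites at 11.7 and 13.5 kb overlaps at this scale, and SOX9 has no peak.

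PAX7 encodes a paired-box homeodomain factor that marks the neural plate border and early neural crest. Its point lies at 18.96 Mb on chromosome 1, in band p36.13, and its window held 4 peaks in WT replicate 1 and 6 in WT replicate 2. The shared site with the highest mean height (the geometric mean of both lists), chr1:18973356-18973672, lay 13.5 kb above the point. Its height was 15.7 normalized tags in WT replicate 1 (30 tags, exact Poisson 95% interval 10.6 to 22.4) and 32.7 in WT replicate 2 (74 tags, 25.7 to 41.0). The site was present in both libraries, but its height differed between them by more than counting error. It stood 43.3 and 45.1 times above input, the first against the input floor of 0.5 tags and so not exact. By mean height it ranked 38 of the 2158 shared sites.

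A second PAX7 site lay 1.86 kb away at chr1:18971499-18971815, which is 11.7 kb above the point. Its heights were 18.9 normalized tags (interval 13.2 to 26.1) and 15.9 (11.1 to 22.0) in WT replicates 1 and 2, so the libraries overlapped within counting error. It ranked 98 of all shared sites by mean height, but stood only 8.67 and 7.31 times above an input of 3 tags. In WT replicate 2 it was 4.32 times the surrounding 10 kb, close to the fold of 4 that the caller required. Its neighbour lies within that surrounding region.

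The third PAX7 site was farther from the point and near the middle of the range of heights. It lay at chr1:19052323-19052639, 92.5 kb above the point, with heights of 11.0 and 11.9. The fourth lay at chr1:18659078-18659394, 301 kb below the point, with heights of 8.90 and 11.5. At both sites the intervals of the WT libraries overlapped. WT replicate 2 alone had a further pair of peaks in the window, of heights 9.72 and 10.2. The RefSeq gene table (GRCh38.p14) gives PAX7 a span of 118021 bp. That table is of another assembly than the peaks, so whether the 3 sites above the point lie inside the gene was not tested.

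The PAX7 window was among the fuller windows of its chromosomes. Of 1490 other consecutive 1 Mb windows on the same 9 chromosomes, 1.61% held at least 4 shared sites, and 1 of the 10 windows here did. In WT replicate 2, 2 of the 10 windows (PAX7 with 6 peaks and MSX1 with 5) held at least 5 peaks, against 4.90% of the other windows. The 10 windows were looked at together, and the fullest was singled out after its count was seen.

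TFAP2A encodes the AP-2 alpha factor, which acts at the border and in the neural crest. Its point lies at 10.41 Mb on chromosome 6, in band p24.3. The shared site at chr6:10354694-10355010 lay 55.1 kb below the point. Its heights were 16.2 normalized tags (31 tags, interval 11.0 to 23.0) and 8.39 (19 tags, 5.05 to 13.1), so the estimates differed by 0.95 on the log2 scale while their intervals overlapped. The site stood 22.4 and 23.1 times above input, the second against the input floor and so not exact. WT replicate 2 alone had a peak closer to the point, at chr6:10452976-10453296, 43.1 kb above it, with a height of 8.39 (interval 5.05 to 13.1). Its remaining peak in the window had a height of 10.2.

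MSX1 and MSX2 encode homeobox factors that respond to BMP signals at the border. Around the MSX1 point at 4.86 Mb on chromosome 4 (band p16.2), WT replicate 1 had 1 peak and WT replicate 2 had 5. The shared site, chr4:5101022-5101338, lay 241 kb above the point, with heights of 8.38 and 12.4 normalized tags. Its height in WT replicate 1 rested on 16 tags, the tag threshold of that library. The peak nearest to any of the 10 points was also in this window. It lay at chr4:4858515-4858835 in WT replicate 2 alone, 1.33 kb below the point, with a height of 9.72 (22 tags, interval 6.09 to 14.7) and 6.70 times the input. The points are given in steps of 10 kb, so each distance holds to about 5 kb. The other peaks of WT replicate 2 alone had heights of 7.95, 7.95 and 14.6.

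The promoter of MSX1 is shown because the nearest peak lay at its point. The sequence is that of RefSeq (GRCh38.p14, chr4:4859415-4859714, plus strand), from 250 bases before to 50 after the start of the gene, and its coordinates cannot be set against the hg19 peaks.
MSX1: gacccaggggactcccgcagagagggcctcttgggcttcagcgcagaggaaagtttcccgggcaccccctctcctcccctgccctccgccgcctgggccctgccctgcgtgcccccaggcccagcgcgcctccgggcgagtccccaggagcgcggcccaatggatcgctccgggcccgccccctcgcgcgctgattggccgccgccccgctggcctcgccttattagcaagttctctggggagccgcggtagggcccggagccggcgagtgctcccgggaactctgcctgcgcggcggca
The forkhead core letters TGTTTAC and TATTTAC were searched on both strands, and any match would be in capitals. Neither was in this window. The promoter table matched 7 of the 10 genes, with 8 promoters since TFAP2A has 2, and 0 of the 8 held either motif, against 5.97% of the 35116 promoters of the same length in the table. This says only that these letters are not in these windows. The sequences under the peaks are not shown, since no genome of their assembly was used here.

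At MSX2 (174.15 Mb on chromosome 5, band q35.2) the shared site was of similar height in both libraries. It lay at chr5:174192603-174192919, 42.8 kb above the point, with heights of 14.1 normalized tags (interval 9.32 to 20.6) and 12.8 (8.58 to 18.4). It ranked 418 of all shared sites by mean height. Both lists gave the input floor there, so the folds of 39.0 and 35.3 are not exact. WT replicate 1 alone had a further peak of height 7.86 in the window.

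PAX3 and ZIC1 had no shared site. PAX3 is the paired-box relative of PAX7, and its window (point at 223.16 Mb on chromosome 2, band q36.1) held 1 peak, at chr2:223566038-223566358 in WT replicate 2, 406 kb above the point. Its height of 7.51 (17 tags, interval 4.37 to 12.0) lay at the tag threshold of that library. ZIC1, a zinc finger factor of the border and dorsal neural tube (147.13 Mb on chromosome 3, band q24), had 1 peak in each WT list. These were chr3:147105220-147105536 in WT replicate 1, with a height of 10.5, and chr3:147072682-147073002 in WT replicate 2, with a height of 8.39. They lay 24.6 and 57.2 kb below the point and did not overlap.

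Among the neural crest genes, FOXD3, a forkhead repressor that keeps crest cells in a progenitor state, had the one shared site. It lay at chr1:63958612-63958928, 169 kb above the point (63.79 Mb on chromosome 1, band p31.3). Its heights were 10.5 and 11.5 normalized tags. With 3 input tags in each list it stood 4.81 and 5.28 times above input, the lowest folds of the 8 shared sites and close to the required fold of 4.

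SNAI2, a zinc finger repressor of E-cadherin that promotes delamination, had 1 peak in its window (49.83 Mb on chromosome 8, band q11.21). It was chr8:49444121-49444441 in WT replicate 2, 386 kb below the point, with a height of 7.51 at the threshold. SOX10, a factor of migrating crest cells and of glia and pigment cells (38.38 Mb on chromosome 22, band q13.1), had a peak of height 15.2 in WT replicate 1, at chr22:38845820-38846136, and one of height 11.0 in WT replicate 2, at chr22:38521162-38521482. They lay 466 and 141 kb above the point. SOX9, a factor of crest cells and cartilage (70.12 Mb on chromosome 17, band q24.3), had 0 peaks in each of the 4 lists. The rest of chromosome 17 had 1.13 shared sites per Mb, the highest density among the 9 chromosomes. Empty windows were common. Of the 1490 other 1 Mb windows of the 9 chromosomes, 802 had no shared site. In WT replicates 1 and 2, 615 and 529 of them had no peak. A count of 0 was taken to allow up to 3 peaks in a list. This 95% limit is one-sided, so it is lower than the upper end of the exact intervals used elsewhere.

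The members farthest inside the limit of 500 kb were a peak of MSX1 at 473 kb (height 7.95) and the WT replicate 1 peak of SOX10 at 466 kb. Just outside it, at 501.5 kb from the SOX10 point in WT replicate 2 and 501.6 kb in WT replicate 1, lay peaks of heights 11.9 and 8.38, which overlap and are 1 shared site. With points given to about 5 kb, it could fall on either side. With the limit widened by 5 kb, after these values were seen, there were 9 shared sites in 6 of the 10 windows, and the neural crest genes held 2 of them.

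The next comparison asked whether the windows held more FOXB1 peaks than the rest of the same chromosomes. In WT replicate 1 the density was 1.10 peaks per Mb in the windows (exact 95% interval 0.549 to 1.97) and 1.10 elsewhere (1.05 to 1.16), a ratio of 0.999 (0.498 to 1.79). In WT replicate 2 it was 2.00 per Mb (1.22 to 3.09) against 1.37 (1.31 to 1.43), a ratio of 1.46 (0.888 to 2.26). Shared sites had 0.80 per Mb (0.345 to 1.58) against 0.705 (0.663 to 0.749), a ratio of 1.14 (0.489 to 2.24). All 3 intervals include a ratio of 1, so a difference from the rest was not detectable in these windows. In WT replicate 2 the interval left out 1 within 250 kb of the points, where 15 peaks gave a ratio of 2.19 (1.22 to 3.62). That value includes PAX7, and the ratio without PAX7 was not computed there. Without PAX7, WT replicate 2 had 3.33 peaks per Mb within 100 kb (1.22 to 7.26) and 1.48 at 100 to 250 kb (0.404 to 3.79). Both intervals include the 1.37 of the rest. Leaving out SOX9 gave 1.69 (1.03 to 2.61), but SOX9 has no peak, so all 20 peaks stayed in a smaller span. Chromosome 17, which holds no other of these genes, also left the comparison, so the rest was a different set. Within 250 kb the ratio was 1.46 (0.627 to 2.87) in WT replicate 1 and 1.99 (0.799 to 4.12) for shared sites. The 8 shared sites compare with 7.05 expected from the pooled density, or with 7.25 when each gene is set against its own chromosome. Without PAX7 the ratio of shared sites fell to 0.631. These intervals cover counting error only, and peaks are not independent replicates.

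Counted by window, the genes lay near the background for shared sites. In the single lists the estimates were above it, most of all in WT replicate 2, which was not tested. At least 1 shared site was found in 5 of the 10 windows, against 46.2% of the 1490 other windows. At least 1 peak was found in 7 of 10 windows in WT replicate 1, against 58.7%, and in 9 of 10 in WT replicate 2, against 64.5%.

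**Figure D2:**
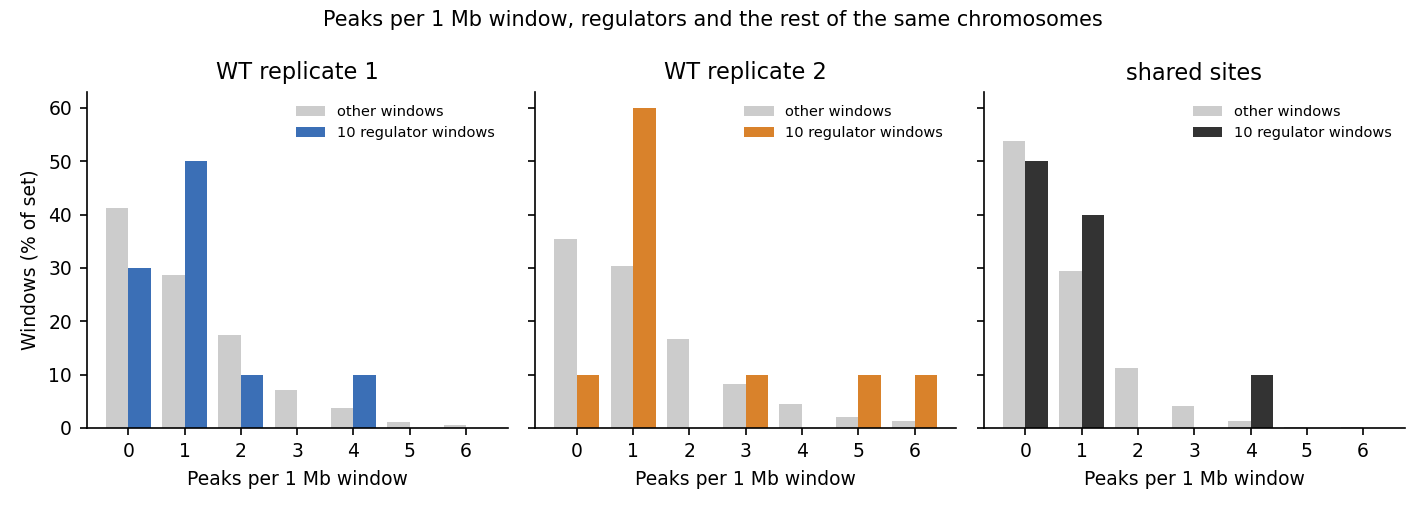
Share of 1 Mb windows (vertical axis, % of the set) by number of peaks (horizontal axis, up to 6), for the 10 gene windows (coloured) and the 1490 other windows of the same chromosomes (grey); each gene window is 10% of its set. Shared sites were absent from 5 of the 10 windows, 4 windows held 1, and PAX7 held 4.

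Within the windows, the estimated peak density was highest next to the points, but the intervals were wide and overlapped between distances. Of the 8 shared sites, 5 lay within 100 kb of a point, 2 at 100 to 250 kb and 1 at 250 to 500 kb, which is 2.50 (exact 95% interval 0.812 to 5.83), 0.667 (0.0807 to 2.41) and 0.20 (0.00506 to 1.11) sites per Mb. In WT replicate 1 the densities were 3.00 (1.10 to 6.53), 0.667 (0.0807 to 2.41) and 0.60 (0.124 to 1.75) per Mb from 6, 2 and 3 peaks. In WT replicate 2 they were 4.50 (2.06 to 8.54), 2.00 (0.734 to 4.35) and 1.00 (0.325 to 2.33) per Mb from 9, 6 and 5 peaks. The order was the same in both libraries and in the shared sites, which are part of both. PAX7 gave 3 of the 5 shared sites within 100 kb. Without it, shared sites had 1.11 per Mb there (interval 0.135 to 4.01), which includes the 0.705 of the rest of the chromosomes. WT replicates 1 and 2 had 1.67 (0.344 to 4.87) and 3.33 (1.22 to 7.26). Those intervals include the 1.10 and 1.37 of the rest. The limit of 100 kb was chosen after the values were seen.

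**Figure D3:**
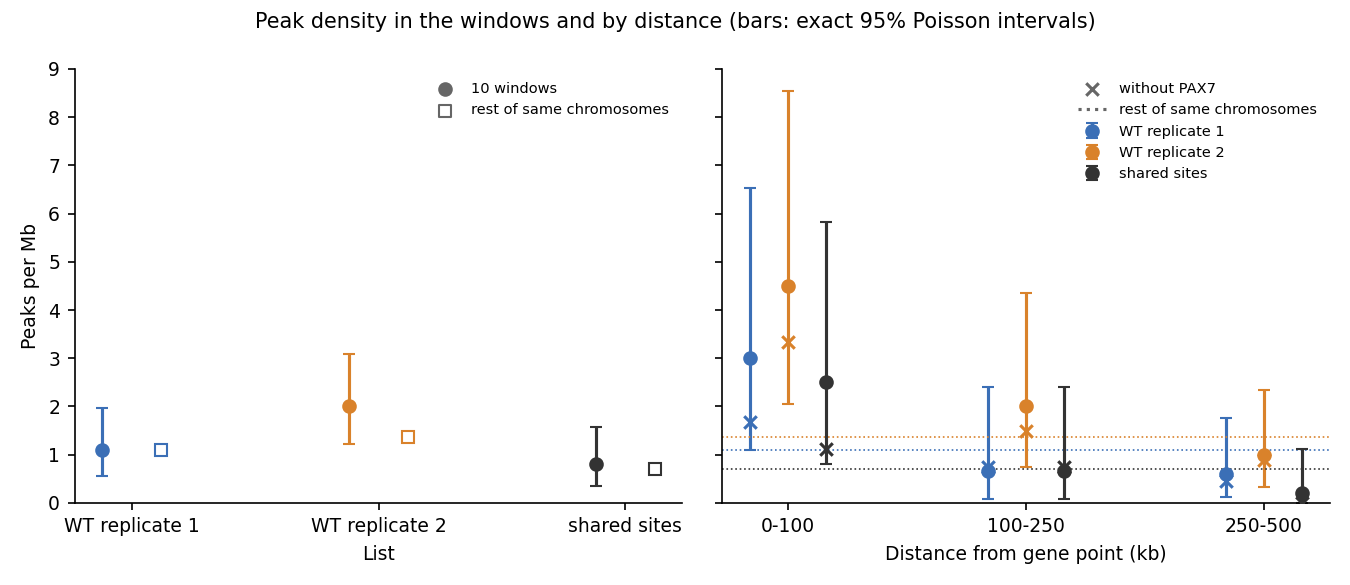
Peaks per Mb (vertical axis) in the 10 windows and the rest of the same chromosomes (left) and by distance from the gene points in kb (right), with exact 95% Poisson intervals (for the rest they are narrower than the square); crosses are the values without PAX7 and dotted lines the rest of the same chromosomes. Within 100 kb the WT lists reached 3.00 and 4.50 peaks per Mb, and the intervals are wide.

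Counted by gene, a shared site lay within 100 kb of 3 of the 10 points (PAX7, TFAP2A and MSX2), against 12.8% of 7537 other windows of 200 kb on these chromosomes. A WT replicate 1 peak lay within 100 kb of 4 points (the same genes and ZIC1), against 18.7%. A WT replicate 2 peak lay that close to 5 points (these and MSX1), against 22.2%. All 5 are border genes, while the sixth, PAX3, and the 4 neural crest genes had no peak within 100 kb. This split by role rests on few genes and on a limit chosen after the values were seen, and was not tested. The other windows are placed without regard to genes, so whether peaks lie as near to genes in general was not tested.

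The heights of the shared sites in the windows lay within the range of those elsewhere. Their median mean height was 11.5 normalized tags (range 10.1 to 22.7) against 11.1 at 1059 sites in the rest of the same chromosomes. The difference was 0.06 on the log2 scale, and 5 of the 8 were above the median of the rest. In WT replicate 2, 7 of the 8 were above the median of the rest, and in WT replicate 1 it was 4 of the 8. Over input, the median fold of these sites was 18.8 and 19.8 in WT replicates 1 and 2, against 12.3 and 12.2 elsewhere. The median site had 1.00 input tag in each list, in the windows and elsewhere. Some folds in the windows rest on the input floor and are not exact, and the difference was not tested. Over the surrounding 10 kb the median folds were close, 8.565 and 8.665 in the windows against 8.85 and 8.49 elsewhere.

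**Figure D4:**
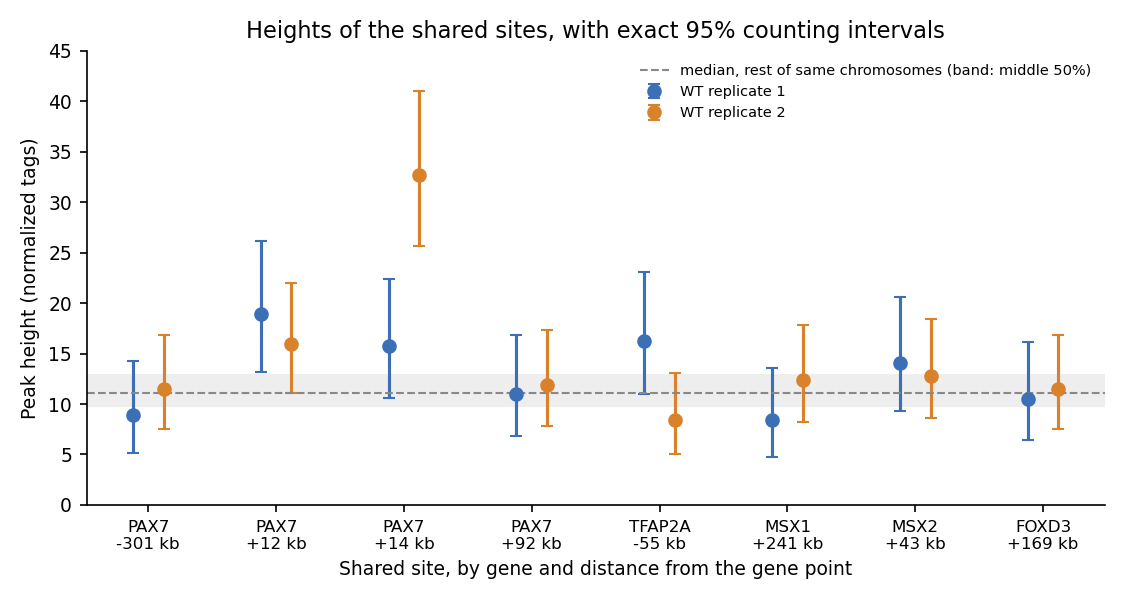
Height in normalized tags (vertical axis) of the 8 shared sites in WT replicates 1 and 2, with exact 95% Poisson intervals of the tags, by gene and distance from its point; the dashed line and band are the median and middle 50% of the mean height of shared sites in the rest of the same chromosomes. The PAX7 site at 13.5 kb, 15.7 against 32.7, is the one whose intervals do not overlap.

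The share of peaks that both WT libraries found was within counting error of that elsewhere. Of the WT replicate 1 peaks in the windows, 8 of 11 were shared, or 72.7% (exact 95% interval 39.0 to 94.0%), against 64.0% elsewhere on these chromosomes. Of the WT replicate 2 peaks, 8 of 20 were shared, or 40.0% (19.1 to 63.9%), against 51.4%. Of the 12 peaks of WT replicate 2 alone, which ranged from 7.51 to 14.6 normalized tags, 4 were lower than the tag threshold of WT replicate 1 (8.38 normalized tags), but 0 were lower than the lowest peak it listed (6.81). The 3 peaks of WT replicate 1 alone had heights of 7.86, 10.5 and 15.2, all above the threshold of WT replicate 2 (7.51). A listed height can lie under the threshold of its own list. The peak of 7.86 did so, with 15 tags and a score of 16, so comparing heights with thresholds is approximate. Intervals of the heights did not overlap at 1 of the 8 sites, the PAX7 site at 13.5 kb, against 0.0944% of the 1059 other shared sites.

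The last comparison set WT against KO. WT replicates 1 and 2 had 11 and 20 peaks in the windows, a mean of 15.5 ± 6.36 (SD, n = 2), and KO replicates 1 and 2 had 0 and 0. All windows with peaks thus had them in WT libraries alone. Against the 3 peaks that a count of 0 was taken to allow per library, a one-sided limit, the WT mean was 5.17-fold higher. This takes the WT mean as exact although its libraries differed, so it is not a lower bound. A two-sided exact permutation test of log2(peaks + 1) gave p = 0.333, and no smaller p is possible with 2 libraries a genotype. The KO lists held so few peaks that 0.0200 and 0.0266 would be expected in the windows from the rest of these chromosomes, so their absence says nothing particular to the 10 genes.

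The KO lists were also called with narrower windows, 179 and 186 bp against 317 and 321 bp. The heights of all 8 shared sites in both WT lists were above the KO tag thresholds of 7.94 and 7.76 normalized tags. When they were scaled down to the KO widths, taking tags as evenly spread, 2 of the 8 remained above in both WT lists, the PAX7 sites at 11.7 and 13.5 kb, with 10.7 and 8.87 and with 8.87 and 18.2 normalized tags at the width of KO replicate 1. Each of these PAX7 sites thus had a scaled value of 8.87 in 1 WT list, close to the threshold of 7.94. KO replicate 1 also listed a peak at a height of 7.28, under that threshold, so the comparison is approximate. Loss of signal in KO and the narrower window cannot be told apart at any of the 8 sites from these lists.

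The number of neighbouring genes varied widely among the members. In the RefSeq table, in its own assembly, SOX10 had 28 other protein-coding genes within 500 kb, while MSX2 and SOX9 had 0 and the median gene had 4.5. PAX7 had 6 and MSX1 had 5. The most gene-rich window, SOX10, had 1 peak in each WT list, and of the windows with no such neighbour MSX2 had 1 shared site and SOX9 had 0. Peaks were not assigned to genes, and those in the wider windows may lie nearer to other genes than to the one named.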

How the data were processed

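FOXB1 ChIP-seq was done on 2 WT and 2 KO libraries, grouped and numbered by their titles, with 1 input library. Per the submitters' processing notes, BWA 0.7.17, Picard and HOMER 4.10 were used with hg19. Per the file headers, peaks were called for each library separately against 1 input directory, at a false discovery rate of 0.001 and at least 4 times the input and the surrounding 10 kb. The deposited height is a signal, tags per 10000000; the deposited folds are linear ratios with an input floor of 0.5 tags; the deposited score is a tag number. The deposited focus ratio, a fraction, and the deposited p-values were not used. Nothing says the replicates were separate cultures, so their spread may be technical.

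The members and lists were chosen with earlier results of these data known. Every shared site in a window is named, as are peaks of 1 list nearest to a point or within 50 kb of it; other peaks are given by height. The MSX1 promoter, the 100 kb limit and the edge peaks were chosen after values were seen. Tags were recovered from heights and library totals. All consecutive windows of the same chromosomes stood in for random ones. Chromosome lengths were from GenomeInfoDb and bands from circlize (hg19). Shares have exact Clopper-Pearson intervals, and ratios of densities exact conditional ones, at 95%. Overlap and interval code was tested on simulated data. Alternatives covered window size, input, overlap, bands, score, each gene and each library. Scripts ran under Python 3.11.15 with scipy 1.17.1, pandas 2.3.3, numpy 2.4.6 and matplotlib 3.10.9.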

Additional observations from a re-analysis of the deposited data

How the results depend on the processing

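The ratio of shared sites per Mb between the windows and the rest of the same chromosomes stayed within its counting interval under 23 of 24 alternatives. It was 3.56 (interval 1.15 to 8.32) within 100 kb of the points, a limit set after the values were seen, and 1.58 there without PAX7. It was 1.99 within 250 kb, 0.849 within 1000 kb, and 0.631 without PAX7, the lowest value. Leaving out each WT library gave 0.999 to 1.46, from all peaks of the other list. The ratios of the single lists were taken over 17 alternatives each. In WT replicate 1 they ranged from 0.707 to 1.49, and 0 intervals left out a ratio of 1. In WT replicate 2 they ranged from 1.12 to 2.19, and 2 intervals left it out. These were 2.19 (1.22 to 3.62) within 250 kb, with PAX7 included, and 1.69 (1.03 to 2.61) without SOX9, which has no peak to remove. Leaving out SOX9 also took chromosome 17 out of the rest. The median height difference of 0.06 (log2) changed size and direction: it was 0.0247 with centres within 100 bp, -0.0499 for the fold over local background, 0.0271 without PAX7, and 0.143 to 0.179 leaving out each WT library. The count of 5 windows with a shared site was 4 to 7 under the alternatives that kept both lists, and 7 and 9 with a single WT list. PAX7 kept 2 of its 4 shared sites at 8 times the input; FOXD3 had 0 there, and MSX2 had 0 with centres within 100 bp. WT exceeded KO by 3.46 to 4.75 on the log2(peaks + 1) scale under all 10 alternatives, with 3.99 for the replicate block (exact sign-flip p = 0.5, the smallest that 2 pairs can give) and 3.58 to 4.39 leaving out each library; the labels pair libraries by number alone. At 16 and 17 tags the caller's thresholds in WT lie close to the height of many members.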

Other observations

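The pair of PAX7 sites 1.86 kb apart was unusual in spacing among the shared sites: 22 of 2158 (1.02%) had another shared site within 2 kb, and 2 of the 8 described here did. The caller compares each peak with its surrounding 10 kb, which holds the other peak of such a pair. The site of the pair at 13.5 kb ranked 8 of 2158 by the size of its difference in height between the WT libraries, 1.06 on the log2 scale, and was 1 of 6 shared sites in all whose counting intervals did not overlap. The TFAP2A site ranked 20, with the difference in the other direction. These sites were singled out after their values were seen.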
